A study of Rattus norvegicus with 15 samples.

Results

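The nonparenchymal liver cells are the liver's minority populations beside the hepatocytes, and 37 genes used as markers of 5 of their classes were followed in rat liver. The genes were chosen by name as markers of Kupffer cells (12 genes), endothelial cells (10), stellate cells and fibroblasts (8), cholangiocytes (4) and leukocytes (3). Of the 37 names 36 were found among the 26405 entries of the deposited expression table, and Acta2, the smooth muscle actin of activated stellate cells, was not analysed here. Testing required an average of 1 FPKM or more, which 32 of them reached, among 11216 genes tested in all. FPKM divide the fragments of a gene by its length and by the library's mapped total, so levels can be compared between genes.

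All livers came from Wistar rats that had lost weight, had been held at the lower weight, and were killed on the first day of weight regain after 24 hours of refeeding. Exercised rats had been trained on a treadmill during the loss and maintenance of weight and were refed ad libitum. Gap-matched rats had been sedentary and were refed an energy gap-matched diet, which the labels do not define further. Sedentary rats had not been exercised and were refed ad libitum. Each group holds 5 libraries of total RNA from flash-frozen liver, numbered 1 to 5 within the group, and no rats at stable or reduced weight are among them. The labels give neither age nor sex, and do not state whether each library is 1 animal, and p-values here speak only for the spread among these libraries.

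Kupffer cells are the resident macrophages of the liver sinusoid, where they take up particles, dying cells and haemoglobin from the blood. Sinusoidal endothelial cells line the same vessels with a fenestrated wall and clear macromolecules through scavenger receptors, and stellate cells lie beneath that wall, store retinoids and can make collagen. Cholangiocytes line the bile ducts, and lymphocytes patrol the sinusoids. In RNA from whole liver, fewer cells of a type and less RNA per cell cannot be told apart.

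The promoters of the most abundant Kupffer genes are shown because these transcripts carried the highest levels of the marker set and, for the complement pair, the closest agreement between libraries. Each sequence runs 5′ to 3′ from 250 bases before to 50 bases after the annotated start, from RefSeq on the rat build GRCr8, which is not the build of the expression table. Capitals mark the motif GGAAGT or its reverse complement ACTTCC, searched on both strands. These are the core letters of ETS-type sites, such as those bound by the macrophage factor PU.1, as background.
C1qa promoter, chr5:154419884-154420183, minus strand: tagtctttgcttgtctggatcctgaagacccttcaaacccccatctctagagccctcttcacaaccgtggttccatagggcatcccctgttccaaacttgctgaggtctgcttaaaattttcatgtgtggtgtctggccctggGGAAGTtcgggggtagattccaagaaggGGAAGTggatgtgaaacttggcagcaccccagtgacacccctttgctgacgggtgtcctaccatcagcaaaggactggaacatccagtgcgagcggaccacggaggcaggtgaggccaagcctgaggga
C1qb promoter, chr5:154407778-154408077, minus strand: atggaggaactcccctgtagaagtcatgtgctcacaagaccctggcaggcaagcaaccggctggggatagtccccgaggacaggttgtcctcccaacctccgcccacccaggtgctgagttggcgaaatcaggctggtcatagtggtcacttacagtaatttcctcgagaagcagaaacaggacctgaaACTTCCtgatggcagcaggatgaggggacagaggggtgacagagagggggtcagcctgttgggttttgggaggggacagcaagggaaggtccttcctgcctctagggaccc
Clec4f promoter, chr4:117696358-117696657, minus strand: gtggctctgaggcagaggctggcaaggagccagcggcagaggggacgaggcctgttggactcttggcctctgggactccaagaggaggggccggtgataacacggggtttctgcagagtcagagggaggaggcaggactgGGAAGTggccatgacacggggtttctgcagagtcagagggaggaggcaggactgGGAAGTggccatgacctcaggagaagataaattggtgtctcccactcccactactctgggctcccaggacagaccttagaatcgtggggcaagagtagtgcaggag
The motif occurred 2 times in the C1qa window, 1 time in that of C1qb and 2 times in that of Clec4f. The Clec4f window also held a 56-base stretch at 2 places whose starts lie 54 bases apart, so both of its matches sit in copies of the same letters. Of 33469 RefSeq rat promoters of this length 22.6% held GGAAGT or ACTTCC, and of the 24 markers with a promoter at hand 13 did (54.2%), 6 of 11 Kupffer genes among them. The overlapping purine motif GAGGAA or its reverse complement TTCCTC occurred in 27.6% of all promoters and in 11 of the 24 (45.8%). Both motifs were chosen after the sequences had been read, and a match describes letters, not a bound site. C1qc had no entry among the promoters. In the RefSeq gene table the 3 C1q genes are neighbours on chromosome 5.

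Levels spanned the marker set in an order led by Kupffer cells. C1qa, C1qc and C1qb, the chains of complement C1q, averaged 146, 115 and 94.1 FPKM over the 15 libraries, and Clec4f, a C-type lectin restricted to Kupffer cells in rodents, 91.8 FPKM. Lyz2 (lysozyme) and Cd5l, a protein that macrophages secrete, followed at 50.5 and 50.3 FPKM. The highest endothelial marker was Eng, a TGF-beta co-receptor, at 38.9 FPKM, the highest stellate and fibroblast marker Col3a1, a fibrillar collagen chain, at 30.5 FPKM, and the highest cholangiocyte marker Epcam, an adhesion molecule of epithelia, at 14.8 FPKM. Leukocyte markers were low, with Ptprc, the pan-leukocyte phosphatase CD45, at 3.03 FPKM and Cd8a, a chain of the CD8 co-receptor, at 1.51 FPKM. Each class named was thus represented by at least 2 markers at or above 1 FPKM. Of the members below that level, the bile duct keratin Krt7 averaged 0.64 FPKM and the duct transcription factor Sox9 0.62 FPKM. Cd3e, a T cell receptor subunit, averaged 0.13 FPKM and was listed at 0 in 7 of the 15 libraries (3 exercised, 2 gap-matched and 2 sedentary). Vsig4, a complement receptor of Kupffer cells, was listed at 0 in all 15. Whether that 0 means no transcript or a gene left unquantified cannot be told from these values. Lyz2 had 2 entries in the table, with means of 50.5 and 38.4 FPKM, and by rule the one with the higher mean is used here. Near-identical copies can share reads, so neither level is certain.

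**Figure D1:**
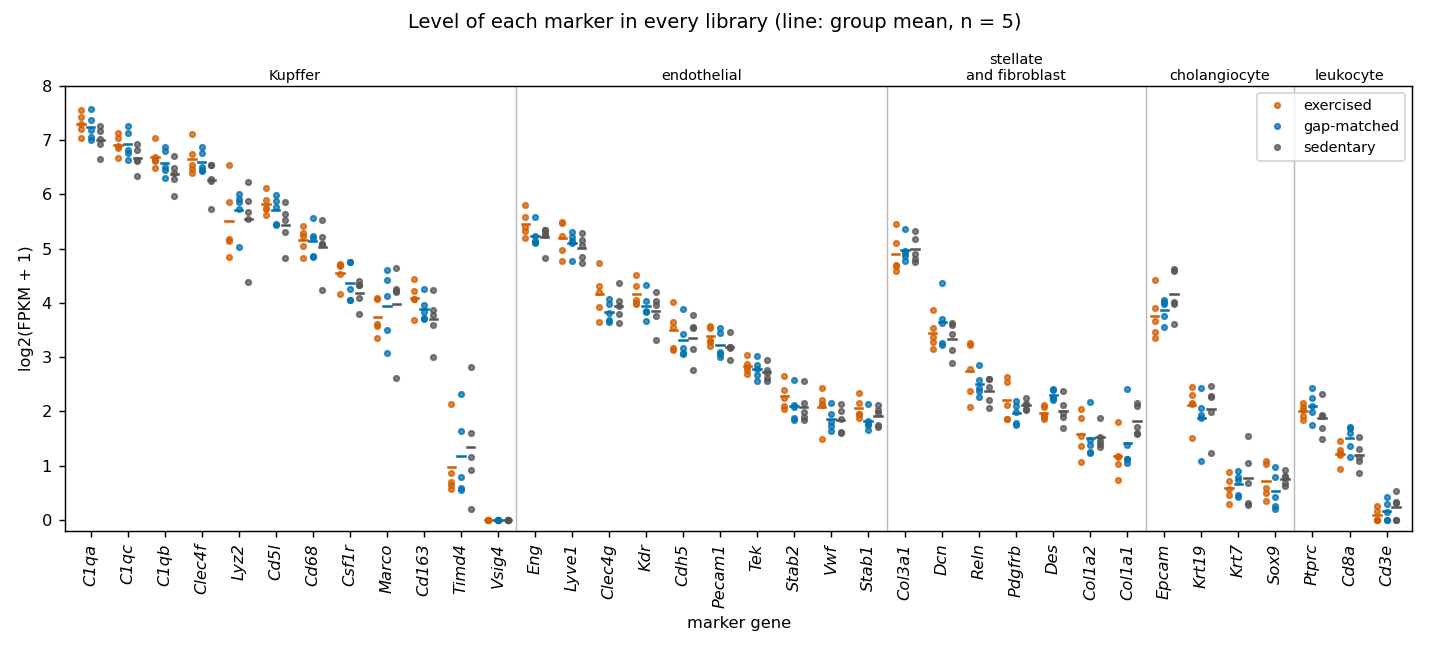
Level of each of the 36 markers found, in log2(FPKM + 1), in every library (points) with the group mean (line, n = 5), coloured by group (exercised, gap-matched, sedentary) and ordered by class and mean. The C1q chains and Clec4f lie highest, Vsig4 is at 0, and among tested markers only Des separates exercised from gap-matched livers.

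Read totals are not known, so no counting error can be given for a single value. Relative depth, estimated from the step size of low values, ran from 0.678 to 1, with means of 0.897 ± 0.058 in exercised, 0.908 ± 0.079 in gap-matched and 0.854 ± 0.122 in sedentary livers (SD, n = 5). Pairs of libraries within a group correlated at 0.967 to 0.984 on the log2 scale. Alb held a placeholder number in 11 libraries and Slc27a2 in 2, and both hepatocyte genes were left out. Library 5 of the sedentary group stood apart for the markers. It held the lowest of the 15 values for 18 of 32 tested markers (56.2%), against 9.75% of all tested genes, and these 18 included 10 of 11 Kupffer and 7 of 10 endothelial genes. Averaged over a class, its log2 deviation from the 15-library mean was −0.71 for Kupffer and −0.38 for endothelial markers, but 0.03 for stellate and fibroblast and 0.46 for cholangiocyte markers. It also had the lowest relative depth, 0.678, while its median-of-ratios scaling factor was 1.01, and the part of depth in its low values was not tested. Where leaving it out moved a printed marker difference from the sedentary group by more than 1.5 times, or turned its sign, the value without it is also given.

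**Figure D2:**
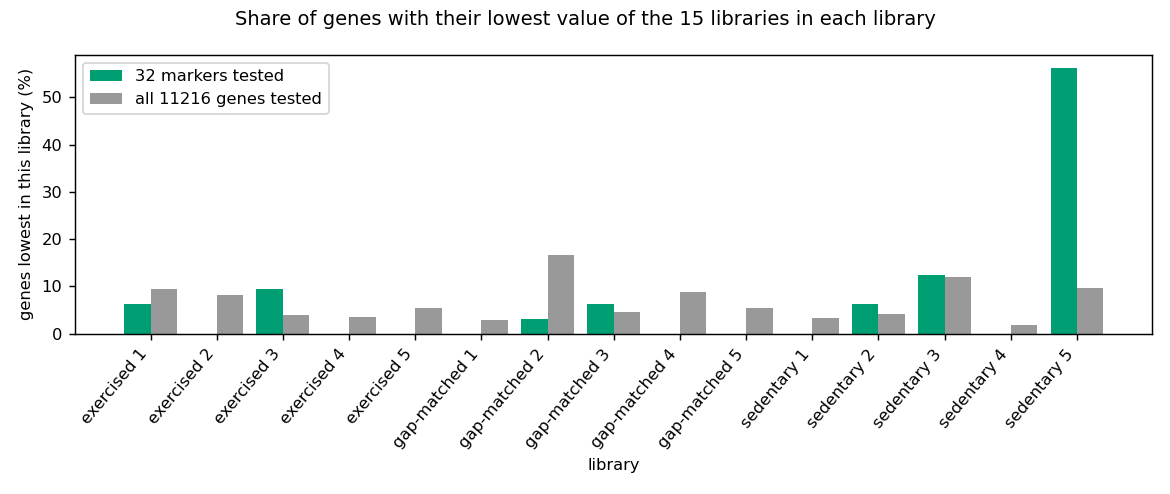
Percentage of genes that have their lowest value of the 15 libraries in each library (x axis, exercised, gap-matched, then sedentary), for the 32 tested markers and for all 11216 tested genes. Sedentary library 5 holds the lowest value of 56.2% of the markers and of 9.75% of all genes.

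Exercised against sedentary livers bears on treadmill training before refeeding, gap-matched against sedentary livers on the diet of regain, and exercised against gap-matched livers on how the 2 interventions differ. Across these comparisons no marker passed the test. With limma at an adjusted p under 0.05, 0 of 32 markers differed between exercised and sedentary livers, where 5.78% of all genes did. The same count was 0 of 32 between gap-matched and sedentary livers (background 3.05%) and 0 of 32 between exercised and gap-matched livers (background 0.900%). The smallest adjusted p of any marker was 0.140, 0.195 and 0.182 in these comparisons, in that order. At an unadjusted p under 0.05 there were 7 of 32 markers in exercised against sedentary livers, a share of 21.9% beside 21.1% of all genes. Of these, 6 were higher (background 10.4%), all of them Kupffer genes (Cd163, Clec4f, Csf1r, Cd5l, C1qa and C1qb), and Col1a1 was lower (background 10.6%). In gap-matched against sedentary livers the unadjusted count was 2 of 32, Des and Cd8a, both higher (background 5.75%), where 17.8% of all genes lay under 0.05. In exercised against gap-matched livers it was 1 of 32, Des, which was lower (background 5.28%), against 16.5% of all genes in either direction. Without sedentary library 5 the unadjusted count in exercised against sedentary livers was 2 of 32, Col1a1 and Marco, both lower, beside 18.1% of all genes, so none of the 6 Kupffer genes named above stayed under 0.05. Without exercised library 1 it was 1, beside 2050 of all 11216 genes, and without exercised library 5 it was 2, beside 2403. Without sedentary library 2 or 3 it was 4, beside 2014 and 2391 of all genes.

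The sign and the precision of the differences add to these counts. A positive difference was found for 25 of 32 markers in exercised against sedentary livers, where 51.3% of all genes had one. Of 19 hepatocyte markers 15 also had one. A positive difference was found for 21 of 32 markers in gap-matched against sedentary livers (background 42.8%, hepatocyte markers 13 of 19). In exercised against gap-matched livers it was found for 21 of 32 (background 57.8%, hepatocyte markers 12 of 19). With sedentary library 5 left out it was 24 of 32 in exercised and 15 of 32 in gap-matched livers against sedentary, beside 51.1% and 42.6% of all genes. The median log2 difference of the markers was 0.15, 0.07 and 0.08 in these comparisons, against 0.01, −0.03 and 0.04 over all tested genes. These comparisons share groups, so their shares are not independent of each other. Some markers also varied together across libraries (C1qa with C1qb at r = 0.967, Kdr with Eng at 0.828), so their signs are not separate observations. The 95% interval of the difference lay within 1 log2 unit of zero for 30, 31 and 31 of the 32 markers. Markers varied more than most genes. Their residual SD had a median of 0.282 on the log2 scale and ran from 0.153 for Tek to 0.812 for Timd4, and 28 of 32 lay above the median of all genes, 0.203.

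**Figure D3:**
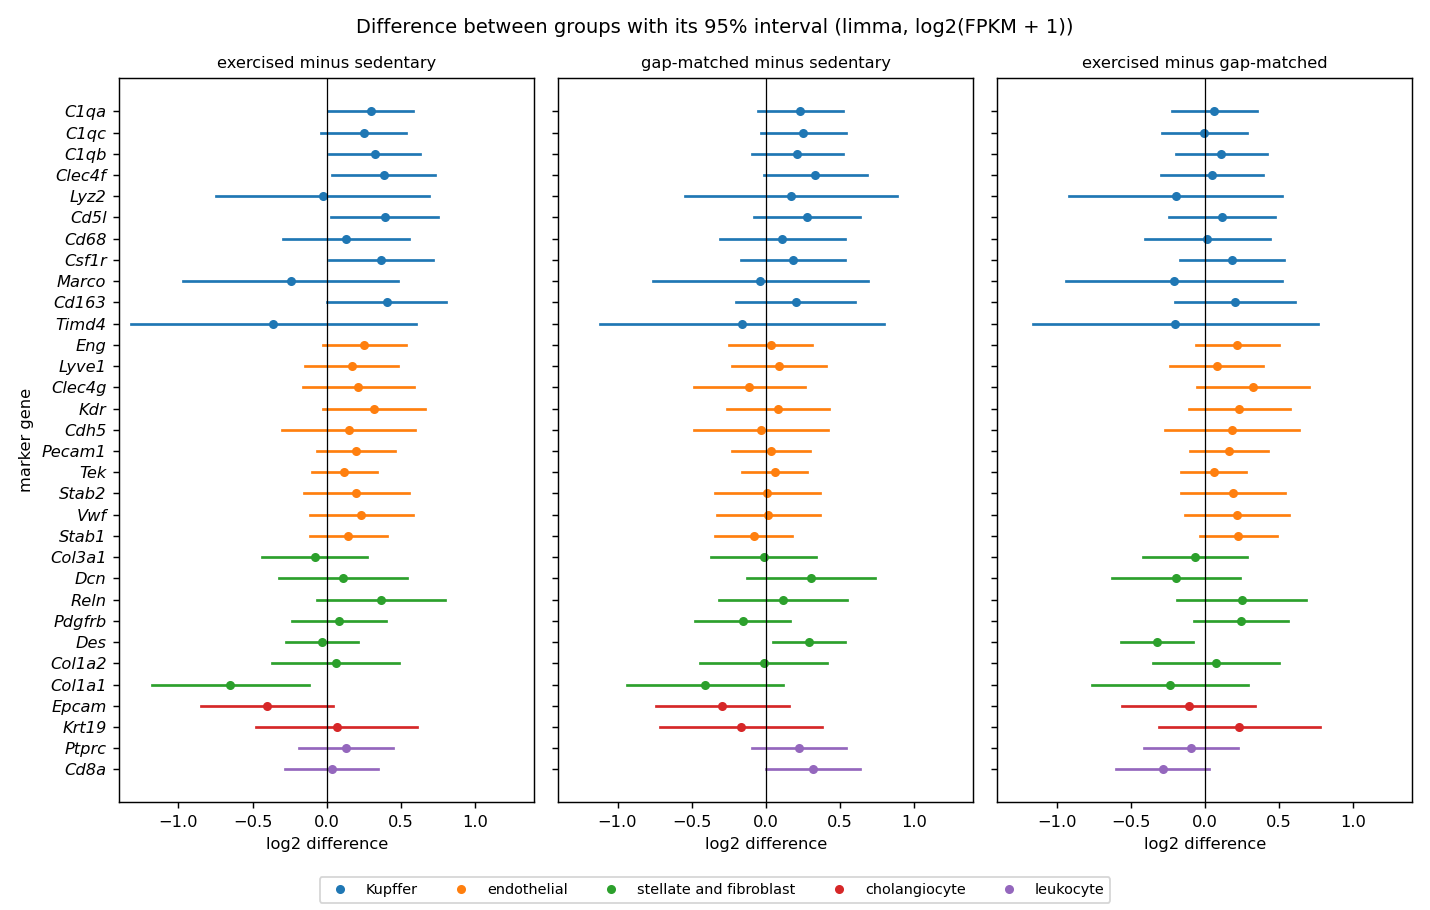
Log2 difference of each tested marker, on the log2(FPKM + 1) scale, with its 95% interval from limma, for exercised minus sedentary (left), gap-matched minus sedentary (middle) and exercised minus gap-matched (right), coloured by class. All 10 endothelial points lie right of zero in the left and right panels, and the Des interval lies left of zero in the right panel, with no marker passing after adjustment.

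Kupffer markers summed lowest in sedentary livers, by less than the range within each group, and 1 sedentary library held part of that difference. Summed over the 12 genes, they gave 676 ± 107 FPKM in exercised, 657 ± 108 FPKM in gap-matched and 565 ± 107 FPKM in sedentary livers (SD, n = 5). The ranges of these sums overlapped, at 576 to 852 FPKM in exercised, 536 to 805 FPKM in gap-matched and 410 to 701 FPKM in sedentary livers. The median log2 difference of the 11 tested genes was 0.30 in exercised and 0.20 in gap-matched livers against sedentary, and 0.05 between exercised and gap-matched livers. Without sedentary library 5, the medians against sedentary were 0.21 in exercised and 0.11 in gap-matched livers.

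C1qa, the A chain of C1q, had 170.0, 131, 146, 155 and 186 FPKM in exercised livers, 165, 132, 144, 127 and 190.2 FPKM in gap-matched livers, and 129, 119.9, 143, 153 and 99.9 FPKM in sedentary livers. All 5 exercised values lay above the sedentary median, and the ranges overlapped, with the lowest value of all in sedentary library 5. The difference was 0.30 ± 0.14 in exercised against sedentary livers (adjusted p = 0.222, 95% interval 0.01 to 0.58) and 0.23 ± 0.14 in gap-matched against sedentary livers (adjusted p = 0.387). Its partner C1qb, the B chain, had 102, 88.4, 97.3, 97.95 and 131 FPKM in exercised livers, 110.4, 86.8, 89.2, 77.6 and 116 FPKM in gap-matched livers, and 83.2, 77.2, 88.4, 104 and 61.7 FPKM in sedentary livers. Exercised library 5 gave its highest and sedentary library 5 its lowest value, and all 5 exercised values again lay above the sedentary median. C1qb differed by 0.32 ± 0.14 in exercised against sedentary livers (adjusted p = 0.208, 95% interval 0.02 to 0.63) and by 0.21 ± 0.14 in gap-matched livers (adjusted p = 0.464). Leaving out sedentary library 5, the exercised differences were 0.21 for C1qa and 0.22 for C1qb, and the gap-matched differences were 0.15 for C1qa and 0.11 for C1qb.

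For Clec4f, the lectin, there were 106, 86.98, 83.3, 91.7 and 137 FPKM in exercised livers, 107, 89.5, 85.4, 85.8 and 116 FPKM in gap-matched livers, and 91.6, 76.8, 74.6, 92.4 and 52.1 FPKM in sedentary livers. Exercised libraries 5 and 1 and gap-matched libraries 5 and 1 were the highest, and sedentary library 5 was far below the rest. Clec4f differed by 0.38 ± 0.16 in exercised livers (adjusted p = 0.187, 95% interval 0.04 to 0.73) and by 0.33 ± 0.16 in gap-matched livers (adjusted p = 0.298), each against sedentary, and all 5 libraries of both groups lay above the sedentary median. Between exercised and gap-matched livers it differed by 0.05 ± 0.16 (adjusted p = 0.907, 95% interval −0.30 to 0.39). Without sedentary library 5 its difference from sedentary was 0.25 in exercised (adjusted p = 0.395) and 0.20 in gap-matched livers (adjusted p = 0.52).

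Cd5l, which macrophages secrete and which limits their apoptosis, had 58.5, 52.2, 48.2, 52.4 and 67.9 FPKM in exercised livers, 53.6, 42.6, 57.8, 42.3 and 62.8 FPKM in gap-matched livers, and 45.00, 49.02, 38.7, 56.8 and 27.2 FPKM in sedentary livers. The sedentary group held both the lowest value and, in library 4, one above the exercised median. Cd5l differed by 0.39 ± 0.17 in exercised livers (adjusted p = 0.195, 95% interval 0.03 to 0.75) and by 0.28 ± 0.17 in gap-matched livers (adjusted p = 0.415) against sedentary. Leaving out sedentary library 5 gave 0.24 for the exercised and 0.12 for the gap-matched difference.

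The receptors of Kupffer cells did not share a direction. Cd163, the haemoglobin scavenger receptor, averaged 16.4 ± 3.23 FPKM in exercised, 14.02 ± 2.43 FPKM in gap-matched and 12.4 ± 3.93 FPKM in sedentary livers (SD, n = 5). Csf1r, the receptor for colony-stimulating factor 1, averaged 22.7 ± 3.45, 20.2 ± 5.31 and 17.5 ± 3.03 FPKM in exercised, gap-matched and sedentary livers. Marco, a scavenger receptor for bacteria, ran the other way, with 12.6 ± 3.10 FPKM in exercised, 15.6 ± 6.70 FPKM in gap-matched and 16.4 ± 6.90 FPKM in sedentary livers. All 5 exercised Marco values lay below the sedentary median, yet the difference of −0.24 ± 0.34 had an adjusted p of 0.744 and a 95% interval of −0.97 to 0.48. It was −0.59 without sedentary library 5 (adjusted p = 0.254). Cd68, a lysosomal glycoprotein, averaged 35.1, 34.9 and 33.0 FPKM, and Lyz2 49.3, 52.7 and 49.4 FPKM, in exercised, gap-matched and sedentary livers.

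Timd4, a receptor for phosphatidylserine on resident macrophages, was the most variable marker, with 0.485, 0.632, 0.812, 3.42 and 0.555 FPKM in exercised livers, 4.01, 0.509, 2.12, 0.474 and 0.728 FPKM in gap-matched livers, and 0.893, 6.08, 2.04, 1.25 and 0.148 FPKM in sedentary livers. High values appeared in single libraries of each group, namely exercised 4, gap-matched 1 and 3, and sedentary 2 and 3. Its difference of −0.36 ± 0.45 in exercised against sedentary livers had an adjusted p of 0.711 and an interval of −1.32 to 0.60, the widest of the set. It was −0.65 without sedentary library 5 and 0.01 without sedentary library 2.

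Endothelial markers summed highest in exercised livers, by less than the range within each group. The 10 genes summed to 151 ± 17.5 FPKM in exercised, 131 ± 16.6 FPKM in gap-matched and 128 ± 18.6 FPKM in sedentary livers (SD, n = 5), with overlapping ranges of 127 to 171, 112 to 157 and 97.8 to 144 FPKM. All 10 had a positive difference in exercised against sedentary livers, from 0.12 to 0.32 with a median of 0.20, and all 10 in exercised against gap-matched livers, from 0.06 to 0.33 with a median of 0.20. In gap-matched against sedentary livers 7 of 10 were positive, with a median of 0.03. Over all genes 51.3%, 57.8% and 42.8% were positive in these comparisons, in that order. No gene of the class had an unadjusted p under 0.05 in any comparison, and the smallest adjusted p was 0.277, 0.784 and 0.375 for exercised against sedentary, gap-matched against sedentary and exercised against gap-matched. Without sedentary library 5 the medians were 0.13 in exercised and −0.04 in gap-matched livers, with 9 and 2 of the 10 genes positive. The gap-matched count against sedentary was also 2 of 10 after scaling to the same sum and 1 of 10 without gap-matched library 1, and that of exercised against gap-matched livers was 9 of 10 without gap-matched library 3. Exercised library 4 had the highest mean deviation of the class, 0.37. The median of exercised against gap-matched livers was 0.13 without it and 0.30 without gap-matched library 1. It was 0.16 by the median of ratios and 0.24 after scaling to the same sum.

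Kdr, the main receptor for vascular endothelial growth factor, had 15.6, 18.9, 14.9, 21.9 and 14.8 FPKM in exercised livers, 18.97, 13.3, 13.2, 11.8 and 15.3 FPKM in gap-matched livers, and 12.6, 14.7, 15.3, 17.3 and 8.99 FPKM in sedentary livers. Exercised library 4 was the highest and sedentary library 5 the lowest, and all 5 exercised values lay above the median of each of the other groups. Kdr differed by 0.32 ± 0.16 in exercised against sedentary livers (adjusted p = 0.277, 95% interval −0.03 to 0.66) and by 0.23 ± 0.16 in exercised against gap-matched livers (adjusted p = 0.495). The difference between gap-matched and sedentary livers was 0.08 ± 0.16, and it was −0.05 without sedentary library 5. Without that library the exercised difference was 0.18.

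Eng, also called endoglin, had 38.9, 54.98, 35.5, 46.8 and 40.9 FPKM in exercised livers, 47.2, 36.4, 33.4, 34.3 and 33.9 FPKM in gap-matched livers, and 39.3, 39.4, 37.5, 37.2 and 27.4 FPKM in sedentary livers. Exercised libraries 2 and 4 and gap-matched library 1 stood above the rest, and sedentary library 5 below. Eng differed by 0.25 ± 0.13 in exercised against sedentary livers (adjusted p = 0.291, 95% interval −0.03 to 0.53), by 0.22 ± 0.13 against gap-matched livers (adjusted p = 0.425) and by 0.16 against sedentary livers without library 5. Stab1, a scavenger receptor of sinusoidal endothelium, had 2.85, 3.45, 2.69, 4.08 and 2.89 FPKM in exercised livers, 3.42, 2.56, 2.15, 2.39 and 2.42 FPKM in gap-matched livers, and 3.07, 3.32, 2.26, 2.92 and 2.35 FPKM in sedentary livers. Its highest value was again that of exercised library 4, and every exercised value exceeded the gap-matched median. Stab1 differed by 0.23 ± 0.12 between exercised and gap-matched livers (adjusted p = 0.375, 95% interval −0.03 to 0.49) and by 0.15 ± 0.12 between exercised and sedentary livers (adjusted p = 0.552).

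Among the other sinusoidal genes, the hyaluronan receptor Stab2 averaged 3.95 ± 0.876, 3.36 ± 0.952 and 3.33 ± 0.960 FPKM in exercised, gap-matched and sedentary livers. Lyve1, another hyaluronan receptor, averaged 36.1 ± 7.77, 33.7 ± 4.57 and 31.7 ± 5.08 FPKM, and the lectin Clec4g 17.5 ± 5.41, 13.4 ± 1.79 and 14.7 ± 3.17 FPKM, in the same order. Exercised library 5 gave the highest Clec4g value, 25.8 FPKM. Of the markers shared by all endothelium, the junction protein Cdh5 averaged 10.6, 9.25 and 9.54 FPKM, the adhesion molecule Pecam1 9.52, 8.45 and 8.19 FPKM, the angiopoietin receptor Tek 6.17, 5.90 and 5.62 FPKM and the clotting protein Vwf 3.31, 2.66 and 2.63 FPKM in exercised, gap-matched and sedentary livers. Tek had the narrowest interval of the class, −0.10 to 0.34 for exercised against sedentary livers.

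**Figure D4:**
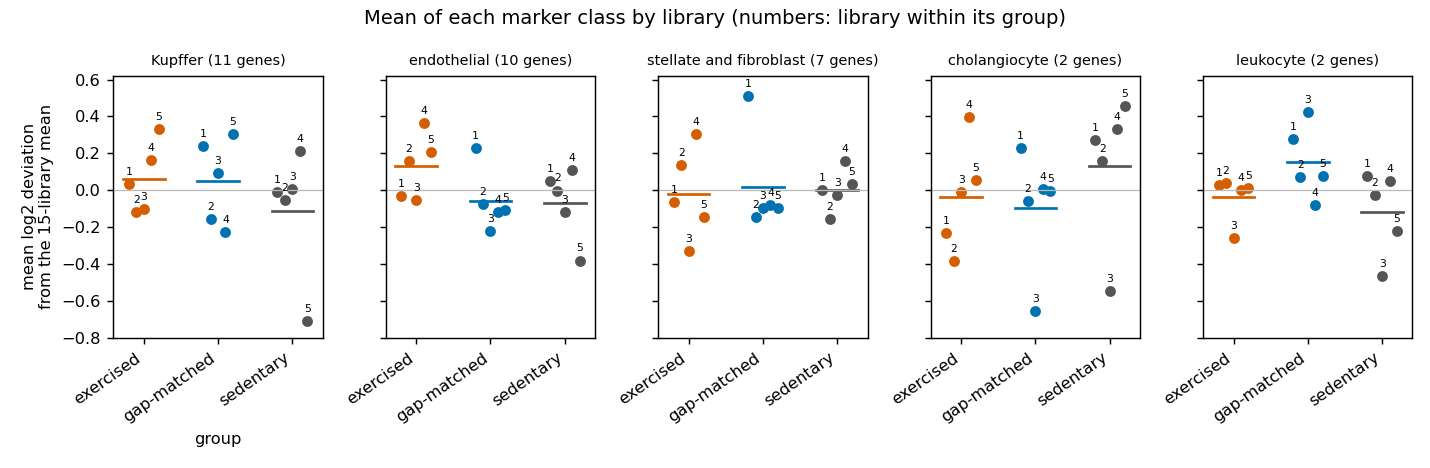
Mean log2 deviation of the tested genes of each class from their 15-library mean (y axis) in each library, by group (exercised, gap-matched, sedentary), with library numbers beside the points and the group mean as a line. Sedentary library 5 lies at −0.71 for Kupffer and −0.38 for endothelial markers, and gap-matched library 1 at 0.51 for stellate and fibroblast markers.

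Stellate and fibroblast markers showed no common direction. The 7 genes summed to 56.0 ± 11.7 FPKM in exercised, 58.1 ± 13.1 FPKM in gap-matched and 55.6 ± 5.99 FPKM in sedentary livers (SD, n = 5). Their median difference was 0.06 in exercised and −0.01 in gap-matched livers against sedentary, and −0.07 between exercised and gap-matched livers. With sedentary library 5 left out, the medians against sedentary were 0.05 and −0.05 in exercised and gap-matched livers. Gap-matched library 1 stood apart here, with a mean deviation of 0.51 over the class, and it held the highest value of the 15 for Col1a1, Col1a2 and Dcn.

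Des, the muscle-type intermediate filament protein that marks stellate cells in rat, had 3.22, 2.80, 2.65, 2.71 and 3.35 FPKM in exercised livers, 4.26, 3.73, 3.63, 3.73 and 4.33 FPKM in gap-matched livers, and 2.91, 2.73, 2.24, 3.36 and 4.16 FPKM in sedentary livers. The gap-matched values all lay above the exercised values, with 3.63 FPKM as the lowest gap-matched and 3.35 FPKM as the highest exercised value, while sedentary library 5 reached into the gap-matched range. Des was the only marker whose ranges did not overlap between exercised and gap-matched livers, 1 of 32, where 3.32% of all genes had such ranges. No marker had non-overlapping ranges in exercised against sedentary livers (background 6.81%) or in gap-matched against sedentary livers (background 6.03%). The difference of −0.32 ± 0.11 in exercised against gap-matched livers did not pass (adjusted p = 0.182, 95% interval −0.57 to −0.08). Nor did the difference of 0.29 ± 0.11 in gap-matched against sedentary livers (adjusted p = 0.195, 95% interval 0.05 to 0.53), which was 0.38 without sedentary library 5 (adjusted p = 0.0809).

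Col1a1, the main chain of type I collagen, had 1.04, 1.26, 0.663, 2.49 and 1.24 FPKM in exercised livers, 4.34, 1.17, 1.07, 1.17 and 1.62 FPKM in gap-matched livers, and 1.99, 2.04, 2.27, 3.31 and 3.44 FPKM in sedentary livers. Of the exercised values only that of library 4 exceeded the sedentary median, and the same held in the gap-matched group for library 1 alone. Col1a1 had the smallest adjusted p of the markers in exercised against sedentary livers, with a difference of −0.65 ± 0.25 (adjusted p = 0.140, 95% interval −1.18 to −0.12). In gap-matched against sedentary livers the difference was −0.41 ± 0.25 (adjusted p = 0.406), and −0.66 without gap-matched library 1 (adjusted p = 0.0886). Without sedentary library 5 the exercised difference was −0.57. Its level lies near the pseudocount of 1 FPKM, which understates such differences.

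Col3a1, a chain of type III collagen, had 23.04, 33.6, 24.6, 42.6 and 25.03 FPKM in exercised livers, 40.1, 29.1, 29.9, 28.3 and 26.3 FPKM in gap-matched livers, and 28.9, 25.9, 38.9, 35.02 and 26.8 FPKM in sedentary livers. Exercised library 4, gap-matched library 1 and sedentary library 3 were the highest of their groups, and the ranges overlapped almost fully. Its differences were −0.08 ± 0.17 for exercised and −0.01 ± 0.17 for gap-matched livers against sedentary (adjusted p = 0.833 and 0.977), with an interval of −0.43 to 0.27 for exercised livers. They were −0.13 for exercised and −0.06 for gap-matched livers without sedentary library 5. In exercised against sedentary livers the point estimate of Col1a1 thus lay below those of Col3a1 and of Col1a2, the latter at 0.06 ± 0.20. This contrast was not tested.

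Reln, an extracellular glycoprotein that hepatic stellate cells make, had 5.92, 8.63, 4.20, 8.36 and 3.25 FPKM in exercised livers, 6.20, 4.18, 5.01, 4.38 and 3.84 FPKM in gap-matched livers, and 5.05, 3.63, 5.05, 4.48 and 3.17 FPKM in sedentary livers. Exercised libraries 2 and 4 were above every other library, and exercised library 5 was near the bottom. Reln differed by 0.37 ± 0.20 in exercised against sedentary livers (adjusted p = 0.323, 95% interval −0.07 to 0.80). Pdgfrb, a receptor for platelet-derived growth factor, averaged 3.73, 2.92 and 3.35 FPKM, and Col1a2, the second chain of type I collagen, 2.08, 1.93 and 1.89 FPKM in exercised, gap-matched and sedentary livers. Dcn, the matrix proteoglycan decorin, averaged 10.04 ± 2.21, 12.00 ± 4.50 and 9.28 ± 2.13 FPKM, with 19.5 FPKM in gap-matched library 1.

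Cholangiocyte markers were judged from the 2 that reached the level for testing. Epcam had 9.16, 11.7, 10.04, 20.6 and 13.9 FPKM in exercised livers, 14.7, 12.5, 10.8, 15.2 and 15.6 FPKM in gap-matched livers, and 15.2, 14.8, 11.3, 23.6 and 22.97 FPKM in sedentary livers. Sedentary libraries 4 and 5 and exercised library 4 were the highest, and only 1 of the 5 exercised values exceeded the sedentary median. Epcam differed by −0.40 ± 0.21 in exercised (adjusted p = 0.290, 95% interval −0.85 to 0.04) and by −0.29 ± 0.21 in gap-matched livers (adjusted p = 0.493), each against sedentary, and without sedentary library 5 the gap-matched difference was −0.19. Krt19, a keratin of bile duct epithelium, had 3.38, 1.84, 4.50, 3.95 and 3.48 FPKM in exercised livers, 4.37, 3.20, 1.11, 2.84 and 2.69 FPKM in gap-matched livers, and 4.52, 3.87, 1.35, 2.96 and 3.84 FPKM in sedentary livers. Its lowest values were single libraries of different groups, gap-matched 3, sedentary 3 and exercised 2. Krt19 differed by 0.07 ± 0.26 in exercised and −0.17 ± 0.26 in gap-matched livers (adjusted p = 0.922 and 0.783), with an interval of −0.48 to 0.61 for the exercised difference. These were 0.12 in exercised and −0.11 in gap-matched livers without sedentary library 5. Gap-matched library 3 and sedentary library 3 were the lowest of their groups for both duct markers.

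Leukocyte markers gave the lowest summed level of the classes, 4.44 ± 0.548 FPKM in exercised, 5.35 ± 1.01 FPKM in gap-matched and 4.23 ± 1.005 FPKM in sedentary livers (SD, n = 5). Ptprc, which all leukocytes and so also Kupffer cells carry, had 3.48, 2.76, 2.57, 3.21 and 3.10 FPKM in exercised livers, 3.74, 2.35, 4.36, 2.97 and 3.27 FPKM in gap-matched livers, and 2.79, 2.83, 1.82, 3.98 and 2.24 FPKM in sedentary livers. Gap-matched library 3 and sedentary library 4 were the highest. Ptprc differed by 0.13 ± 0.15 in exercised and 0.23 ± 0.15 in gap-matched livers against sedentary (adjusted p = 0.682 and 0.458, intervals −0.19 to 0.45 and −0.09 to 0.54), and the exercised difference was 0.09 without sedentary library 5. Cd8a, found on cytotoxic T cells among other leukocytes, had 1.29, 1.76, 0.924, 1.34 and 1.43 FPKM in exercised livers. It had 2.05, 2.24, 2.29, 1.22 and 1.56 FPKM in gap-matched livers, and 1.88, 1.48, 0.826, 1.12 and 1.23 FPKM in sedentary livers. Gap-matched libraries 1, 2 and 3 were above all others, and the ranges of the 3 groups overlapped. Cd8a differed by 0.32 ± 0.15 in gap-matched against sedentary livers (adjusted p = 0.277, 95% interval 0.00 to 0.63) and by −0.28 ± 0.15 in exercised against gap-matched livers (adjusted p = 0.354), where all 5 exercised values lay below the gap-matched median. Erythroid and platelet markers, which come with blood left in the tissue, summed to 924 to 1747 FPKM in exercised, 1539 to 2309 FPKM in gap-matched and 798 to 1717 FPKM in sedentary livers, with 6 of 14 at or above 1 FPKM and 2 listed at 0 throughout. Their part in the leukocyte values was not tested.

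Pairs of markers, most of them of the same cell type, were compared across the 15 libraries as log2 values, all of which share the FPKM scaling of their library. Of 15 pairs 13 were tested, because Vsig4, paired with Clec4f, and Krt7, paired with Krt19, averaged less than 1 FPKM. With 100000 permutations and adjustment over the 13 pairs, 7 passed by Pearson's r and 4 by Spearman's rho. C1qa and C1qb gave r = 0.967 and rho = 0.975 (adjusted permutation p = 6.5e-05 for both, the smallest p that the permutations can give being 1e-05), and r = 0.952 without the 2 libraries farthest from the C1qa median. C1qb and C1qc gave r = 0.931 and rho = 0.929 (adjusted permutation p = 6.5e-05 for both), and r = 0.91 without the 2 farthest. The complement chains thus varied together from library to library, and as deviations from the group means they gave r = 0.958 and r = 0.929.

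Within the endothelium, Kdr and Eng gave r = 0.828 (adjusted permutation p = 0.00126) and rho = 0.636 (0.0424), with r = 0.705 without the 2 farthest libraries. Stab1 and Stab2 gave r = 0.723 (adjusted permutation p = 0.00822) and rho = 0.675 (0.0298), with r = 0.558 without the 2 farthest. Pecam1 and Cdh5 gave r = 0.638 (adjusted permutation p = 0.0252) but rho = 0.557 (0.0702), and the r did not pass without sedentary library 5 (r = 0.541, adjusted p = 0.087) or without gap-matched library 1 (r = 0.582, adjusted p = 0.0776). By contrast Clec4g and Stab2, both of the sinusoidal wall, gave r = 0.0775 (adjusted permutation p = 0.789) and rho = 0.0429 (0.882).

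Among the collagens, Col1a1 and Col1a2 gave r = 0.63 (adjusted permutation p = 0.0252) and rho = 0.514 (0.0856), with r = 0.606 without the 2 farthest libraries. Without gap-matched library 1 the r was 0.471 and did not pass (adjusted permutation p = 0.166), without sedentary library 5 it was 0.738 (0.00832), and the deviations from group means gave 0.818 (0.0187). Col1a1 and Col3a1 gave r = 0.60 (adjusted permutation p = 0.0346) and rho = 0.589 (0.0616), with r = 0.657 without the 2 farthest libraries. Its r was 0.489 without gap-matched library 1 (adjusted permutation p = 0.166) and 0.727 without sedentary library 5 (0.00832). Dcn and Reln gave r = −0.105 (adjusted permutation p = 0.767), and the macrophage pairs Cd163 with Marco and Cd68 with Lyz2 gave r = 0.257 and r = 0.227 (adjusted permutation p = 0.458 and 0.493). Across cell types, Stab2 with Clec4f gave r = 0.353 (adjusted permutation p = 0.327) and rho = 0.546 (0.0702). Dcn with C1qa gave r = 0.326 (adjusted permutation p = 0.34) and rho = 0.364 (0.263).

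**Figure D5:**
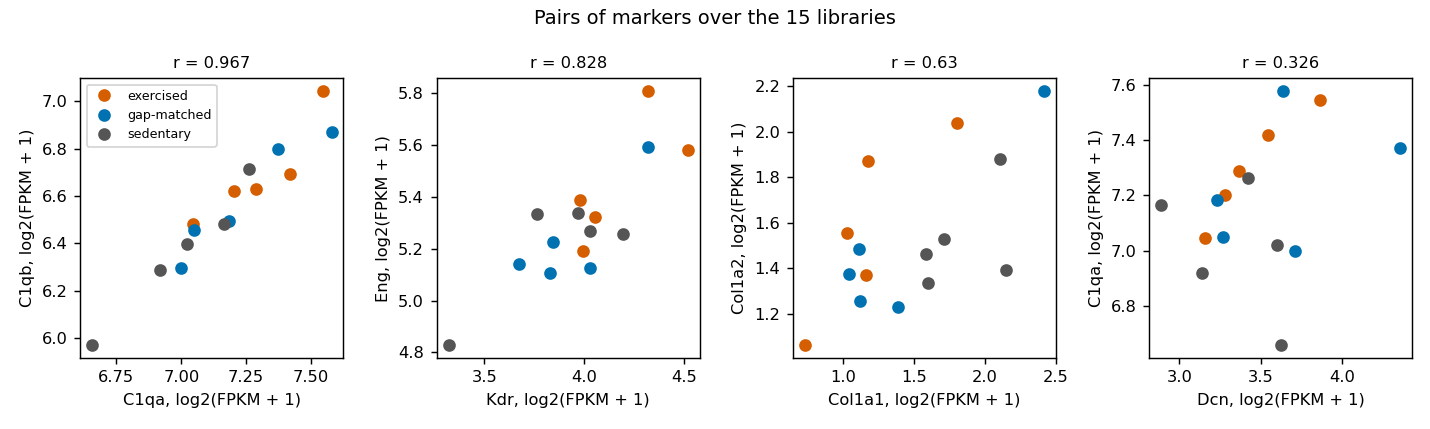
Log2(FPKM + 1) of C1qa and C1qb, Kdr and Eng, Col1a1 and Col1a2, and Dcn and C1qa over the 15 libraries (points), coloured by group (exercised, gap-matched, sedentary), with Pearson's r above each panel. C1qa and C1qb lie on a line in all 3 groups (r = 0.967), and the highest Col1a1 value is that of gap-matched library 1.

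Wider lists of genes chosen by name for the same cell types, which hold none of the markers, had 1 gene that passed. Not all of these genes are confined to those cells. Ambp, in the cholangiocyte list, averaged 3894 FPKM and Fn1, in the stellate and fibroblast list, 264 FPKM, above every marker. So did Ctsc, in the Kupffer and macrophage list, at 296 FPKM and Cd74, in the leukocyte list, at 165 FPKM. Among 20 tested Kupffer and macrophage genes, Slc40a1, the iron exporter ferroportin, which hepatocytes also make, had 48.3, 47.4, 49.2, 49.4 and 42.4 FPKM in exercised livers, 46.6, 39.1, 44.7, 42.1 and 53.98 FPKM in gap-matched livers, and 33.5, 36.9, 28.3, 36.6 and 31.8 FPKM in sedentary livers. Every exercised and every gap-matched value lay above every sedentary value, where 6.81% and 6.03% of all genes had ranges that did not overlap. In this list 1 of 20 genes passed against sedentary, beside 5.78% of all genes in exercised and 3.05% in gap-matched livers. Slc40a1 rose by 0.49 ± 0.10 in exercised livers (limma adjusted p = 0.00766) and by 0.43 ± 0.10 in gap-matched livers (adjusted p = 0.0246) against sedentary, and the difference between exercised and gap-matched livers was 0.07 ± 0.10 (adjusted p = 0.757). In exercised livers the call held in all 18 alternatives, and in gap-matched livers in 11 of 18. It was lost there after scaling to the same sum (adjusted p = 0.0804), with the replicate block (0.0734), with only the groups compared (0.0556), and without gap-matched library 1 (0.0549) or 5 (0.0565) or sedentary library 3 (0.0612) or 5 (0.0602). Beside it, the summed Kupffer markers overlapped between groups, and so did 19 summed hepatocyte markers, at 79290 to 99529 FPKM in exercised, 84224 to 91718 FPKM in gap-matched and 72517 to 96473 FPKM in sedentary livers. Their part in the Slc40a1 difference was not tested.

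The median difference of the 20 Kupffer and macrophage genes was 0.20 in exercised and 0.16 in gap-matched livers against sedentary, and 0.03 between exercised and gap-matched livers. Of 27 further endothelial genes 0 passed in any comparison, with medians of 0.15, 0.03 and 0.14 for exercised against sedentary, gap-matched against sedentary and exercised against gap-matched. The closest was Maf, a transcription factor of sinusoidal endothelium, with a difference of 0.52 ± 0.17 in exercised against sedentary livers (adjusted p = 0.0918), which passed without sedentary library 4 (0.0463). Of 34 further stellate and fibroblast genes 0 passed, the closest being Lhx2, a transcription factor of stellate cells, with 0.50 ± 0.17 in exercised against sedentary livers (adjusted p = 0.0947), which passed without exercised library 5 (0.0426). Of 10 further cholangiocyte and 14 further leukocyte genes 0 passed. The smallest p of these lists belonged to Spp1, osteopontin, at −0.42 ± 0.21 (adjusted p = 0.306), and to Cd7, a T and NK cell protein, at 0.69 ± 0.22 (adjusted p = 0.107), both in gap-matched against sedentary livers. Without gap-matched library 4 Spp1 was at −0.23, with a pseudocount of 0.1 FPKM it was at −0.69, and Cd7 passed without sedentary library 1 (adjusted p = 0.0498).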

How the data were processed

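Liver RNA of 15 libraries, in 3 groups of 5, was analysed from values that the authors deposited as FPKM for each Ensembl gene. Per the submitters' processing notes, Trimmomatic, Cufflinks and the build Rnor_5.0 were used, with no version stated, and the aligner is not given in the sources used here. Of 26407 entries, 2 with a repeated identifier were dropped. Genes were matched by the name in the table, and of repeated names the entry with the highest mean was used.

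Genes averaging 1 FPKM or more were tested on log2(FPKM + 1), a scale that understates fold differences of low genes. One limma model (version 3.58.1, R 4.3.3, variance trend on the mean) held all groups. Tests were two-sided, adjusted by Benjamini-Hochberg over all 11216 genes, with a threshold of 0.05. Relative depth came from genes under 0.3 FPKM. Sums, permutations and sequence searches ran in Python 3.11.15 (pandas 2.3.3, numpy 2.4.6, scipy 1.17.1), and matplotlib 3.10.9 drew the plots. The tests were tried on simulated data.

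The markers and gene lists were chosen with earlier results of these data known. By rule, values in every library are given for the 3 markers of each class with the smallest p and for the most abundant one, and, from other lists, genes that passed or the one with the smallest p are named. Timd4 and the tests of Marco and Tek were added after their values were seen. Alternatives were a pseudocount of 0.1, no filter or one at 5 FPKM, scaling to the same sum or by the median of ratios, only the groups compared, no variance trend, the replicate number as a block, and leaving out each library.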

Additional observations from a re-analysis of the deposited data

Results flagged for a closer look

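In groups of 5 libraries, a value was singled out when its gap to the nearest other value took most of the group's whole range (Dixon's test at 95%). Of 105 combinations of marker and group examined, 6 were singled out, and chance singles out about 1 in 20. Gap-matched library 1 accounted for 4 of them. It had 4.34 FPKM of Col1a1 where the next gap-matched value was 1.62, 3.52 FPKM of Col1a2 where the next was 1.79, 40.1 FPKM of Col3a1 where the next was 29.9, and 47.2 FPKM of Eng where the next was 36.4. Exercised library 4 had 3.42 FPKM of Timd4, the next exercised value being 0.812. Sedentary library 5 had 27.4 FPKM of Eng, and the next sedentary value was 37.2.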

How the results depend on the processing

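Under the 18 alternatives tried in each comparison 0 of 32 markers were called, with smallest adjusted p of 0.0801, 0.0809 and 0.131 for exercised against sedentary, gap-matched against sedentary and exercised against gap-matched. Calls over all genes were less stable. Of 648, 342 and 101 calls in these comparisons, leaving out 1 library gave 342 to 642, 147 to 357 and 18 to 131. With the replicate number as a block the counts were 449, 201 and 20. Same-numbered libraries deviated together with r over 0.1 in only 2 of 15 pairs, and 2 libraries correlated best with their own number, so no pairing was assumed. Exercised against gap-matched gave 53 calls without a filter, 34 after scaling to the same sum and 16 with only the groups compared. Of the 342 calls for gap-matched against sedentary 92 were higher, against 67 of 416 after scaling to the same sum and 132 of 321 by the median of ratios, and for exercised against gap-matched 77 of 101 were higher, against 51 of 86 by the median of ratios. The sign turned under at least 1 alternative for 11, 14 and 8 of the 32 markers, whose differences had sizes of up to 0.36 (Timd4), 0.169 and 0.237 (Col1a1). Among named markers, these were in gap-matched against sedentary livers Eng (−0.0372, same sum) and Col3a1 (0.0305, median of ratios), and in exercised against gap-matched livers Clec4f (−0.0015, median of ratios). Leaving out 1 library, differences in exercised against sedentary livers ran from −0.0465 to 0.118 for Cd8a, −0.138 to 0.218 for Krt19, −0.217 to 0.000321 for Col3a1, −0.113 to 0.0546 for Des and −0.65 to 0.0102 for Timd4. In gap-matched against sedentary livers they ran from −0.0489 to 0.169 for Kdr, −0.0614 to 0.0658 for Eng, −0.112 to 0.0679 for Col3a1 and −0.372 to 0.0324 for Krt19, and in exercised against gap-matched livers from −0.203 to 0.0295 for Col3a1, −0.0677 to 0.117 for Clec4f and −0.392 to 0.0131 for Col1a1. Correlations ran from −0.299 to 0.411 for Cd163 with Marco, −0.076 to 0.214 for Clec4g with Stab2 (−0.0754 as deviations from group means) and −0.373 to 0.0373 for Dcn with Reln. The cause was not tested. Read depth is unknown and sets no counting error here.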

Other observations

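Genes of the cells around the nonparenchymal classes were read from the same fit. Of 19 hepatocyte markers, Cyp2e1, a cytochrome P450, rose in exercised against sedentary livers, with 1920.2 ± 377 FPKM against 1157 ± 306 FPKM (SD, n = 5 each) and a log2 difference of 0.75 ± 0.20 (limma adjusted p = 0.0408), and the other 18 did not pass. Beside this 1 of 19, 5.78% of all genes passed in that comparison. The Cyp2e1 call was lost without any of exercised libraries 1, 2, 4 and 5 or sedentary libraries 1, 2 and 5 (adjusted p of 0.0526 to 0.104), and with no filter (0.0761), only the groups compared (0.05003) or the replicate block (0.072), which left it in 8 of 18 alternatives. Fgg, a fibrinogen chain, rose in gap-matched against sedentary livers, with 3872 ± 352 FPKM against 2979 ± 227 FPKM and a log2 difference of 0.38 ± 0.10 (adjusted p = 0.0488). It was likewise 1 of 19, where 3.05% of all genes passed. The Fgg call was lost without gap-matched library 1, 3, 4 or 5 or sedentary library 1, 2, 3 or 5 (adjusted p of 0.086 to 0.11), and with no filter (0.157), scaling to the same sum (0.104), only the groups compared (0.0746) or the replicate block (0.112), which left it in 6 of 18 alternatives. The medians of the 19 were 0.16, 0.05 and 0.10 for exercised against sedentary, gap-matched against sedentary and exercised against gap-matched.

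Of 6 tested cell cycle genes, 2 replication licensing factors fell in exercised against sedentary livers, where 5.78% of all genes passed in either direction. Both averaged only a few FPKM. Mcm3 averaged 1.05 ± 0.555 FPKM in exercised and 2.45 ± 0.537 FPKM in sedentary livers (SD, n = 5 each), a log2 difference of −0.78 ± 0.19 (limma adjusted p = 0.0278). Its ranges did not overlap between these groups, as for 6.81% of all genes. Mcm5 averaged 1.19 ± 0.715 FPKM in exercised and 3.29 ± 1.47 FPKM in sedentary livers, a log2 difference of −0.96 ± 0.27 (adjusted p = 0.0454). Leaving out single libraries gave adjusted p of up to 0.0717 for Mcm3 (lost without exercised 1 or 3 or sedentary 1, 3 or 5) and up to 0.112 for Mcm5 (lost without exercised 1, 3 or 4 or sedentary 1, 3 or 4). Mcm5 was also lost with no filter (0.0797), only the groups compared (0.0848) or the replicate block (0.0834). With a pseudocount of 0.1 FPKM the differences were −1.28 for Mcm3 and −1.50 for Mcm5 (adjusted p = 0.0406 and 0.0499). None of 2 neutrophil, 6 erythroid and platelet, and 4 adipocyte and mesothelial markers tested passed in any comparison. The smallest p of these lists belonged to S100a8, at 0.84 ± 0.47 (adjusted p = 0.365), and Hbb, a globin with near-identical copies, at 0.95 ± 0.34 (adjusted p = 0.147), both in gap-matched against sedentary livers, and to Cidec, a lipid droplet protein, at 0.33 ± 0.10 in exercised against sedentary livers (adjusted p = 0.061). Cidec passed by the median of ratios (0.0213), with a filter at 5 FPKM (0.0486) and without exercised library 1 (0.0484). With a pseudocount of 0.1 FPKM S100a8 was at 2.01 (adjusted p = 0.339).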
